A study of Rattus norvegicus with 31 samples.

Results

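RT1-Ba encodes the alpha chain of RT1-B, an MHC class II molecule of the rat, and its signal in blood cells fell into 2 states that were set apart by a wide empty interval. Class II molecules are pairs of an alpha and a beta chain that present peptides to helper T cells, and in blood they are carried mainly by B cells, monocytes and dendritic cells. In the rat they are encoded in the RT1 complex on chromosome 20, together with class I molecules, peptide-loading proteins and the class III genes. RT1 genes differ in sequence between rat haplotypes, and several of them have near-identical copies.

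All 31 arrays of the study were used, and their state was chosen by the scanner's log10 ratio of red over green at the RT1-Ba probe. Arrays above 0.2 were taken as RT1-Ba-high (5 arrays) and arrays below -0.3 as RT1-Ba-low (26 arrays), and 0 arrays lay between. Red (Cy5) held RNA of 1 rat's PBMC, mononuclear cells of peripheral blood such as lymphocytes and monocytes, and green (Cy3) held the same pool on every array. That pool combined 5 samples picked at random from each group, and the dyes were not swapped. The CR-L group (13 arrays) were offspring of dams restricted in calories by 20% on days 1 to 12 of pregnancy, and these pups received leptin up to postnatal day 21, in doses of 1.0 to 43.8 ng, or 5 times the intake from milk. The CR group (11 arrays) came from dams restricted in the same way and had normal lactation. The WT group (7 arrays), taken as the protocol's controls, came from unrestricted dams. All offspring ate chow freely for 4 months before blood was drawn. The labels give neither the strain, the sex nor the litter of a sample. As 16 rats were mated, litter mates can be among the arrays, and p-values that treat all 31 as independent may be too small.

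Signal levels overlapped between the states. The median red signal of an array was 73.7 to 88.4 (median 82.4) in RT1-Ba-high arrays and 69.8 to 235 (median 84.0) in RT1-Ba-low arrays, and red was well above background on 60.1% to 64.4% of spots in RT1-Ba-high arrays and on 57.5% to 83.6% in RT1-Ba-low arrays. Markers of PBMC were measured, with 13 of 15 T cell genes, 15 of 18 B cell genes and 12 of 16 genes of dendritic cells and monocytes passing the filter on dim probes. Markers of other blood cells passed it as well, with 10 of 10 granulocyte genes, 9 of 10 platelet genes and 10 of 11 erythroid genes.

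The array carries a pair of RT1-Ba probes, and the brighter one decided the state. It was designed on an mRNA described in the files as RT1.B-1(alpha) chain, and the files give it no genome position. The dimmer one was designed on the reference transcript and lies at chr20:4700973-4701032 of the rat build rn4, on the forward strand. Both are shown because they align closely but not fully: over 57 aligned positions, 49 were identical, 5 were substituted and 3 were a gap. Whether both read the same gene copy was not tested. Capitals mark the letters that differ within the aligned stretch.
RT1-Ba, deciding probe: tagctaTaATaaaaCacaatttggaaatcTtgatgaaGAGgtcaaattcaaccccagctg
RT1-Ba, mapped probe: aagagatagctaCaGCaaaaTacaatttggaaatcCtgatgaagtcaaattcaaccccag

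The states rest on the deciding probe, so its values are a description and carry no test. Its log10 ratio was 0.64 in CR-L 4, 0.44 in CR 1, 0.52 in CR 2, 0.65 in WT 4 and 0.61 in WT 7, and in the RT1-Ba-low arrays it was -1.42 at the lowest, -1.11 at the median and -0.75 at the highest. The value just above the upper threshold was thus 0.44 and the value just below the lower one -0.75. Red intensity was 922 to 2306 in RT1-Ba-high arrays and 51.5 to 159 in RT1-Ba-low arrays, while the pool's green intensity at this spot was 279 to 366 in RT1-Ba-high arrays and 237 to 336 in RT1-Ba-low arrays. Red was well above background on 5 of 5 RT1-Ba-high arrays and on 21 of 26 RT1-Ba-low arrays.

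**Figure D1:**
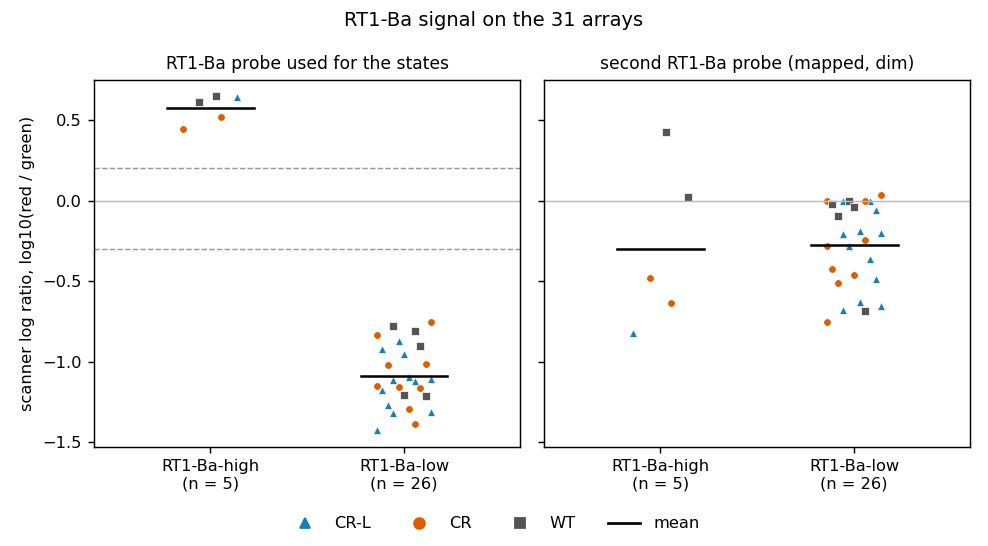
Scanner log ratio (log10 of red over green) of the deciding RT1-Ba probe (left) and of the mapped RT1-Ba probe (right) on each array, by state, with the mean as a bar and both thresholds as dashed lines. At the deciding probe the 5 RT1-Ba-high arrays lie at 0.44 or above and the 26 RT1-Ba-low arrays at -0.75 or below, and at the mapped probe the states overlap.

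The mapped probe did not show these states. Its log10 ratio was -0.82 to 0.43 in RT1-Ba-high arrays and -0.75 to 0.034 in RT1-Ba-low arrays. Red was well above background there on 0 of 5 RT1-Ba-high arrays and on 3 of 26 RT1-Ba-low arrays, with red intensities of 35.0 to 52.3 in RT1-Ba-high arrays and 34.9 to 146 in RT1-Ba-low arrays. On most arrays this probe therefore gives only a bound.

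The states crossed the study's groups and slides. RT1-Ba-high arrays were 1 of 13 in CR-L, 2 of 11 in CR and 2 of 7 in WT. They came from 4 of the 8 slides: 1 on slide 1, 2 on slide 2, 1 on slide 4 and 1 on slide 7, and each of these slides also held RT1-Ba-low arrays. Whether the difference between the states itself differed between WT and restricted offspring was tested with an interaction term in limma: 0 of 27491 probes passed after adjustment, and 1409 (5.13%) had an unadjusted p under 0.05. As WT held only 2 RT1-Ba-high arrays, this test had little power and cannot show that the differences were alike.

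Few other probes differed between the 2 states, and none was set apart as widely as RT1-Ba. With limma over 27491 probes, 9 (0.0327%) differed between RT1-Ba-high and RT1-Ba-low arrays at an adjusted p under 0.05, of which 6 (0.0218%) rose and 3 (0.0109%) fell. At an unadjusted p under 0.05 there were 1610 (5.86%). For 2 probes (0.00728%) the ranges of the states did not overlap. The gap between the ranges was 0.26 (log2) for BI279526 and 0.21 for TC618620. On the same scale the deciding probe was 1.28 to 1.93 in RT1-Ba-high arrays and -2.29 to -1.48 in RT1-Ba-low arrays. The comparison takes its groups from RT1-Ba itself, so its p-values measure likeness to RT1-Ba and no effect of a treatment. Of the 9 probes, 4 lay within 5 Mb of RT1-Ba on chromosome 20, and 2 more have no position but are described in the files as MHC chains. Their sequences are shown because some of them are named by an expressed sequence alone. None shared more than 7 letters in a row with the deciding RT1-Ba probe, in either orientation.
BI279526, chr20:4671835-4671893: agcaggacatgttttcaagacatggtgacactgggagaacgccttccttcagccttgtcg
Notch4, chr20:4263481-4263540: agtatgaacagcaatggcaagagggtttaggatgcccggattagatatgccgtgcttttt
Tcp11, chr20:6286302-6286361: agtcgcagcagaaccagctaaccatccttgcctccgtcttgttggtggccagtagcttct
Stk38, chr20:7269944-7270003: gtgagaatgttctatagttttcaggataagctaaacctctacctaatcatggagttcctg
AJ003232, no position: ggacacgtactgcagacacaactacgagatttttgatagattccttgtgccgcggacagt
NP798074, no position: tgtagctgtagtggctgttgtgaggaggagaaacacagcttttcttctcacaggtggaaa
BM389513, no position: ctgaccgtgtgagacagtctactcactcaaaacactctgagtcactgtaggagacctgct
TC618620, chr5:153704542-153704601: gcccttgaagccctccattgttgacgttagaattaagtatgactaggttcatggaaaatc
Ndn, chr1:116596077-116596136: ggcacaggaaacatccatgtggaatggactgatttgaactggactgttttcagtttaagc

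The probe nearest to RT1-Ba among the 9 was that of the expressed sequence tag BI279526 (probe A_44_P184008), a cDNA clone with no gene name in the files. It lay 0.029 Mb before the mapped RT1-Ba probe and 784 bases before the nearest RT1-Db1 probe. Its log2 ratio was 0.76 in CR-L 4, 0.33 in CR 1, 0.63 in CR 2, 0.94 in WT 4 and 0.88 in WT 7, against -1.43, -0.49 and 0.065 at the lowest, median and highest of the RT1-Ba-low arrays. Every RT1-Ba-high array lay above every RT1-Ba-low array. The difference was 1.29 ± 0.18 (log2, SE), or 2.45-fold (adjusted p = 0.00056, limma, and p = 5.89e-06 by an exact two-sided permutation test over the arrays, the smallest that 169911 splits can give). On the 4 slides that held both states the difference was 1.11 to 1.80. A neighbouring probe without a gene name, A_44_P184011, also lay 0.029 Mb before the mapped RT1-Ba probe. It differed by only 0.22 ± 0.084 (adjusted p = 0.735, limma). Whether the neighbours read the same transcript was not tested.

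Notch4, a receptor of the Notch family that lies in the class III region, rose. Its log2 ratio was 0.35 in CR-L 4, 0.42 in CR 1, 0.36 in CR 2, 0.16 in WT 4 and 0.42 in WT 7, against -0.30, -0.067 and 0.21 at the lowest, median and highest of the RT1-Ba-low arrays. One pair of arrays overlapped, as 1 RT1-Ba-low array lay above WT 4. The difference was 0.41 ± 0.065 (adjusted p = 0.0030, limma, and p = 1.18e-05, exact permutation), at 0.437 Mb before RT1-Ba. It was 0.24 to 0.60 within the 4 slides.

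Tcp11 rose and was the least separated of the 4 on chromosome 20. Its log2 ratio was 0.50 in CR-L 4, 0.36 in CR 1, 0.38 in CR 2, 0.026 in WT 4 and 0.29 in WT 7, against -0.28, -0.045 and 0.29 at the lowest, median and highest of the RT1-Ba-low arrays. WT 4 lay inside the range of the RT1-Ba-low arrays, 7 of which were above it. The difference was 0.34 ± 0.065 (adjusted p = 0.0385, limma, with 1 RT1-Ba-low array left out as an outlier spot, and p = 0.00014, exact permutation). The call was lost with any of 20 single arrays left out, at adjusted p up to 0.376, and with the red channel alone (difference 0.19, adjusted p = 0.996), in the authors' table (adjusted p = 0.744) and with the B cell mean as a covariate (adjusted p = 0.061).

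Stk38, a serine/threonine kinase, fell at 1 of its probes, 2.57 Mb from RT1-Ba. There its log2 ratio was -0.47 in CR-L 4, -0.16 in CR 1, -0.73 in CR 2, -0.42 in WT 4 and -0.40 in WT 7, against -0.26, 0.17 and 0.60 at the lowest, median and highest of the RT1-Ba-low arrays. CR 1 was the only RT1-Ba-high array inside the range of the RT1-Ba-low arrays, with 2 of them below it. The difference was -0.58 ± 0.095 (adjusted p = 0.00464, limma, and p = 1.77e-05, exact permutation), and without CR 2 the adjusted p was 0.106. The other Stk38 probe differed by -0.030 ± 0.085 (adjusted p = 0.984, limma), so the call rests on 1 of the 2 probes.

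**Figure D2:**
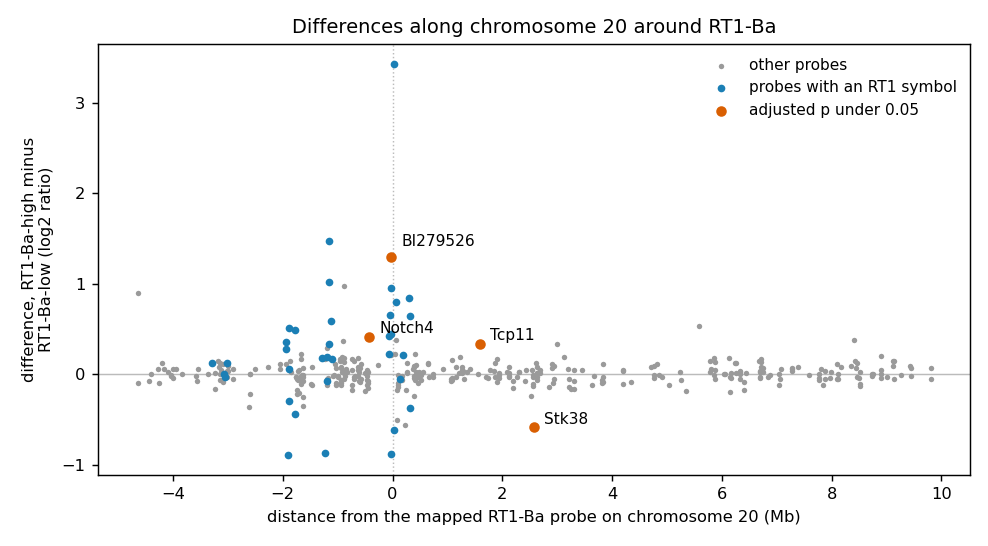
Difference between RT1-Ba-high and RT1-Ba-low arrays (log2 ratio, y axis) of every probe within 10 Mb of the mapped RT1-Ba probe on chromosome 20 (x axis, Mb), with RT1-named probes in blue and the 4 probes past the threshold in orange. Probes far from 0 cluster within 2 Mb of RT1-Ba and go both ways, from -0.89 to 3.43.

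The share of probes that followed RT1-Ba was highest close to it on chromosome 20. Among the 111 probes within 1 Mb of RT1-Ba, 2 passed the threshold and 23.4% had an unadjusted p under 0.05. Of the 195 probes between 1 and 5 Mb, 2 passed and 16.4% had such a p. Between 5 and 10 Mb it was 0 of 93 probes and 8.6%, and beyond 10 Mb on the same chromosome 0 of 285 probes and 2.81%, against 5.86% over all probes. The share with such a p therefore fell with distance and was below the share over all probes beyond 10 Mb.

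The size of the differences followed the same order close to RT1-Ba. A difference over 0.5 (log2, either direction) was found for 10.8% of the probes within 1 Mb, 4.1% of those at 1 to 5 Mb and 1.08% of those at 5 to 10 Mb, against 0.509% over all probes. Without probes that carry an RT1 symbol, an unadjusted p under 0.05 was found for 16.5% of 97 probes within 1 Mb and 12.1% of 174 probes at 1 to 5 Mb. Neighbouring probes are not independent, since several read the same gene. The sequence set aside in this build as chromosome 20 random held 12 probes, 4 of them with such a p. The 24891 probes placed elsewhere had 2 calls and 5.59%. They include sequence not assigned to any chromosome, where the share was 12.1% of 290 probes (Un) and 32% of 25 probes (Un random).

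Among probes without a position, AJ003232 (probe A_43_P16181), described in the files as the RT1-D beta1 chain of haplotype k, had the largest difference of the 9, at -1.87 ± 0.37 (adjusted p = 0.0405, limma, and p = 0.000659, exact permutation). RT1-D is the other main class II molecule of the rat. Its log2 ratio was -2.81 in CR-L 4, -0.36 in CR 1, -2.91 in CR 2, 0.12 in WT 4 and -2.94 in WT 7, against -1.57, 0.15 and 0.96 at the lowest, median and highest of the RT1-Ba-low arrays. CR-L 4, CR 2 and WT 7 lay far below every RT1-Ba-low array, and CR 1 and WT 4 lay among them. The call was lost with any of 22 single arrays left out, at adjusted p up to 0.401, and with the scanner's log ratio (adjusted p = 0.064). On 3 of the 4 slides with both states the difference was negative, and on slide 4 it was 0.096.

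The expressed sequence tag BM389513 (probe A_44_P756474), which has no gene name or position in the files, split the RT1-Ba-high arrays in the same way. It was -2.18 in CR-L 4, -0.32 in CR 1, -2.03 in CR 2, -0.095 in WT 4 and -2.12 in WT 7, against -0.85, 0.078 and 0.90 at the lowest, median and highest of the RT1-Ba-low arrays. Again CR-L 4, CR 2 and WT 7 lay below every RT1-Ba-low array. The difference was -1.43 ± 0.27 (adjusted p = 0.0384, limma, and p = 0.000465, exact permutation), and it was lost with any of 14 single arrays left out, at adjusted p up to 0.376, and with the study group as a covariate (adjusted p = 0.051).

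NP798074 (probe A_44_P557444), described as a class I molecule of the Eu-like kind, rose. Class I molecules present peptides to cytotoxic T cells. Its log2 ratio was 1.08 in CR-L 4, 0.50 in CR 1, 1.12 in CR 2, 0.17 in WT 4 and 0.85 in WT 7, against -0.999, -0.47 and 0.49 at the lowest, median and highest of the RT1-Ba-low arrays. Only WT 4 lay within their range. The difference was 1.06 ± 0.19 (adjusted p = 0.0212, limma, and p = 5.89e-05, exact permutation), and the adjusted p was 0.106 without WT 7, 0.283 without CR 2 and 0.258 without CR-L 4.

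The 2 probes past the threshold on other chromosomes both rose. TC618620 (probe A_44_P870442), a transcript assembly on chromosome 5 that the files call unknown, had a log2 ratio of 0.60 in CR-L 4, 0.48 in CR 1, 0.94 in CR 2, 0.43 in WT 4 and 0.60 in WT 7, against -0.84, -0.28 and 0.22 at the lowest, median and highest of the RT1-Ba-low arrays. The states did not overlap. Its difference was 0.90 ± 0.12, or 1.86-fold (adjusted p = 0.000232, limma, the smallest of all, and p = 5.89e-06, exact permutation), and it was 0.66 to 1.33 within the 4 slides.

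Ndn (necdin), an imprinted gene known from neurons, was the other. At the probe past the threshold its log2 ratio was 0.19 in CR-L 4, 0.45 in CR 1, 0.13 in CR 2, 0.41 in WT 4 and 0.31 in WT 7, against -0.48, -0.085 and 0.16 at the lowest, median and highest of the RT1-Ba-low arrays. The difference was 0.41 ± 0.074 (adjusted p = 0.0212, limma, and p = 1.77e-05, exact permutation), and the call was lost without WT 4 (adjusted p = 0.135), WT 7 (0.106) or CR 1 (0.159). It was also lost with the scanner's log ratio (adjusted p = 0.276) and in the authors' table of log2 values (adjusted p = 0.273). The other Ndn probes were dim, with red well above background on 5 and 6 of the 31 arrays, and differed by 0.23 ± 0.077 (adjusted p = 0.64) and -0.063 ± 0.056 (adjusted p = 0.938, limma).

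**Figure D3:**
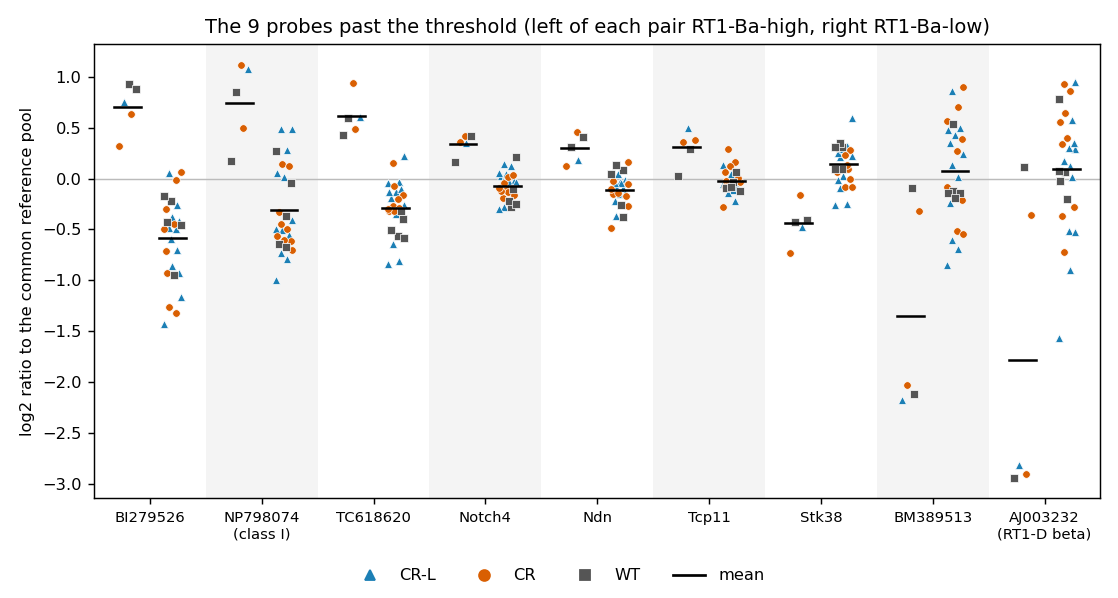
Log2 ratio to the common pool of the 9 probes past the threshold on each array, RT1-Ba-high to the left and RT1-Ba-low to the right of each pair, with means as bars. BI279526 and TC618620 show no overlap, and at BM389513 and AJ003232 3 of the 5 RT1-Ba-high arrays lie below all RT1-Ba-low arrays while 2 lie among them.

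With the slide as a block 3 probes passed (BI279526, Notch4 and TC618620), and the adjusted p was 0.063 for NP798074, 0.091 for Stk38, 0.303 for Ndn, AJ003232 and BM389513 and 0.386 for Tcp11. Those 3 also passed with any single array left out, and the others each lost the call without at least 1 array. The total was 4 without WT 7, 4 without CR 2 and 5 without CR-L 4, and without both WT arrays of the RT1-Ba-high state 6 probes passed, 4 of them among the 9, and BI279526 had an adjusted p of 0.064.

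In the main fit no probe of the other listed class II chains passed the threshold, although many leaned one way. Of the 11 listed chains, 7 besides RT1-Ba were measured, in 11 probes, and 0 passed the threshold (limma), with 7 (63.6%) at an unadjusted p under 0.05, against 5.86% of all probes. Their differences had a median of 0.43, with 8 above 0 and 3 below, beside a median of 0.0023 over all probes. The mean log2 ratio of the 11 probes was -0.18 to 0.41 in RT1-Ba-high arrays and -1.19 to 0.46 in RT1-Ba-low arrays. In RNA of mixed cells, fewer cells of a kind and less RNA per cell cannot be told apart.

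RT1-Bb, the beta chain that pairs with RT1-Ba, had the largest difference among these probes and a pattern of its own. At the probe A_44_P552452 its log2 ratio was 1.56 in CR-L 4, -0.10 in CR 1, 1.33 in CR 2, 0.54 in WT 4 and 1.63 in WT 7, and in the RT1-Ba-low arrays it ran from -5.34 to 1.10. The RT1-Ba-low arrays were split: 14 were at -3.40 or lower, 1 was at -1.97, and 11 were at -0.62 or higher and overlapped with the RT1-Ba-high arrays. The difference of 3.43 ± 1.09 did not pass the threshold (adjusted p = 0.62, limma, and p = 0.00471, exact permutation). All RT1-Ba-high arrays were thus on the upper level of RT1-Bb, and so were 11 RT1-Ba-low arrays. The 15 arrays below -1 were 7 of the 12 CR-L, 6 of the 9 CR and 2 of the 5 WT arrays in the RT1-Ba-low state.

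Probes of the same class II gene disagreed. The other RT1-Bb probe differed by -0.61 ± 0.24 (adjusted p = 0.735, limma), opposite to the one above. RT1-Db1, the beta chain of RT1-D, was measured by 3 probes, with differences of 0.95 ± 0.23 (adjusted p = 0.22), 0.45 ± 0.20 (adjusted p = 0.836) and -0.88 ± 0.27 (adjusted p = 0.585, limma). The third of these split the RT1-Ba-high arrays as AJ003232 did, with -1.35 in CR-L 4, -0.26 in CR 1, -1.45 in CR 2, 0.25 in WT 4 and -1.58 in WT 7. RT1-Ba-low arrays ran from -1.55 to 0.85 at this probe, so that only WT 7 lay below them all. Over the whole complex, 11 RT1 genes had several probes, and for 5 of them the probes differed in direction.

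None of the remaining chains passed the threshold, though RT1-DOb and RT1-Db2 had unadjusted p of 0.00123 and 0.00435 (limma) and exact permutation p of 0.00178 and 0.00709. RT1-DOb, a chain of the class II molecule that modulates peptide loading in B cells, was -0.0092 to 0.71 in RT1-Ba-high arrays and -1.37 to 0.53 in RT1-Ba-low arrays (difference 0.80 ± 0.23, adjusted p = 0.458, limma). RT1-Db2 differed by 0.66 ± 0.22 (adjusted p = 0.629), RT1-Da, the alpha chain of RT1-D, by 0.43 ± 0.26 and 0.23 ± 0.18 at its probes (adjusted p = 0.885 and 0.929) and RT1-DOa by 0.22 ± 0.22 (adjusted p = 0.946, limma). RT1-DMa, which helps to load peptides onto class II molecules, differed by -0.047 ± 0.12 (adjusted p = 0.982).

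**Figure D4:**
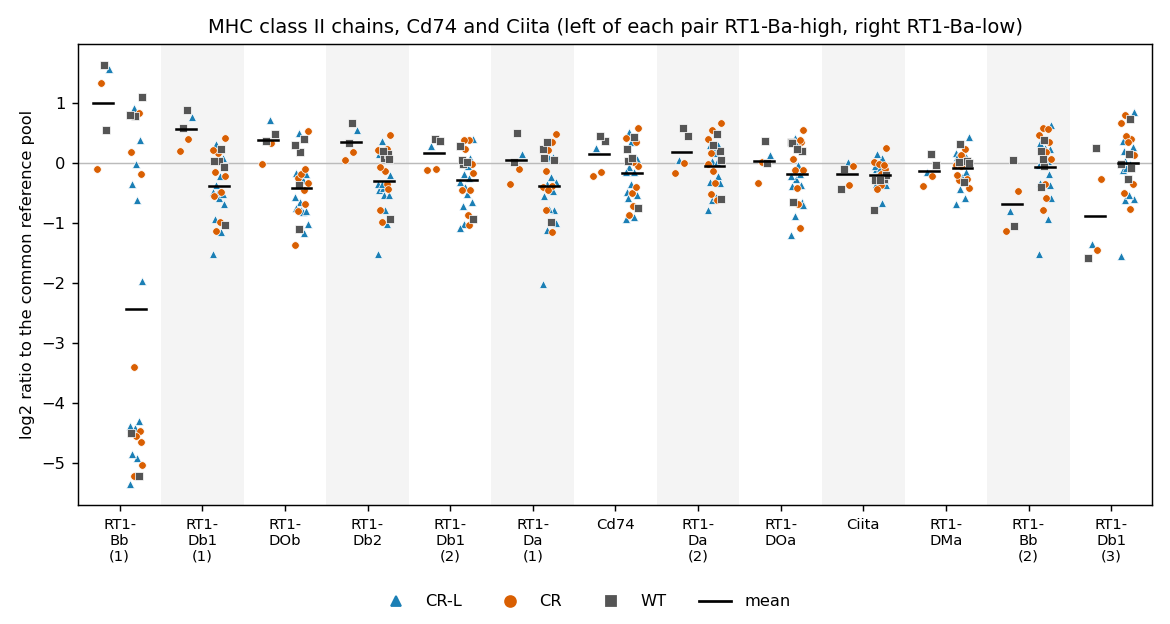
Log2 ratio to the common pool of 11 class II probes, Cd74 and Ciita on each array, RT1-Ba-high to the left and RT1-Ba-low to the right of each pair, with means as bars, and numbers in brackets for several probes of a gene. RT1-Bb at its first probe splits the RT1-Ba-low arrays into an upper and a lower level, and Cd74 and Ciita overlap fully.

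The partners that all class II molecules share showed no such states. Cd74, the invariant chain that escorts class II molecules, had a log2 ratio of 0.25 in CR-L 4, -0.21 in CR 1, -0.14 in CR 2, 0.37 in WT 4 and 0.45 in WT 7, against -0.93, -0.11 and 0.59 at the lowest, median and highest of the RT1-Ba-low arrays. The difference was 0.31 ± 0.21 (adjusted p = 0.897, limma, and p = 0.169, exact permutation). Ciita, the master regulator of class II transcription, differed by 0.018 ± 0.10 (adjusted p = 0.994, limma). Of the 31 probes of 16 partners and regulators 0 passed, 1 had an unadjusted p under 0.05 (Ifi30, a thiol reductase of antigen processing, 0.24 ± 0.11, adjusted p = 0.826), and the median difference was 0.032.

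The lists of class I and class III genes gave many differences in both directions and 1 call. They were drawn up by gene and not by distance from RT1-Ba, and both include Tapbp. Of 28 class I and peptide-loading probes 0 passed, with 11 (39.3%) at an unadjusted p under 0.05, against 5.86% of all probes. Their median difference was 0.051. RT1-CE10, a class I gene, had values of -0.85 in CR-L 4, -0.33 in CR 1, -0.98 in CR 2, -1.21 in WT 4 and -1.21 in WT 7, against -1.49, 0.090 and 0.39 at the lowest, median and highest of the RT1-Ba-low arrays (difference -0.87 ± 0.19, adjusted p = 0.119, limma). RT1-CE16 differed by 1.06 ± 0.25 (adjusted p = 0.22) and Psmb8, a subunit of the immunoproteasome that cuts peptides for class I, by -0.50 ± 0.12 (adjusted p = 0.22, limma). Psmb8 was -0.78 to -0.36 in RT1-Ba-high arrays, and CR-L 5, at -1.10, was the only RT1-Ba-low array not above them all. With single arrays left out its adjusted p was 0.00054 to 0.537 (limma). With scale normalization between arrays RT1-CE10 and Psmb8 passed (adjusted p = 0.0296 and 0.0437, limma). With the RT1-Ba log ratio as a regressor RT1-CE10 and RT1-CE16 passed (adjusted p = 0.0299 and 0.0336, limma).

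A further class I probe was separated almost fully, and was named after its values were seen. RT1-CE4 at the probe A_44_P440514 was 0.81 in CR-L 4, 0.59 in CR 1, 0.85 in CR 2, 0.52 in WT 4 and 0.79 in WT 7, against -0.99, -0.37 and 0.58 at the lowest, median and highest of the RT1-Ba-low arrays. Only 1 RT1-Ba-low array lay above WT 4. The difference was 1.02 ± 0.23 (adjusted p = 0.185, limma, and p = 1.18e-05, exact permutation). It passed with the red channel alone (adjusted p = 0.034, limma) and with the RT1-Ba log ratio as a regressor (adjusted p = 0.0402, limma). Its other probe differed by 0.34 ± 0.12 (adjusted p = 0.709).

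Among 44 class III and neighbouring probes 1 passed (Notch4), 8 (18.2%) had an unadjusted p under 0.05, and the median difference was -0.011. Col11a2, a collagen chain, differed by -0.56 ± 0.13 (adjusted p = 0.22, limma), with all RT1-Ba-high arrays below 0, from -0.83 to -0.18, and RT1-Ba-low arrays from -0.34 to 0.92. Tapbp (tapasin), which loads peptides onto class I molecules, differed by 0.23 ± 0.087 (adjusted p = 0.735, limma). Over the 54 probes that carry an RT1 symbol or are described as MHC molecules, 30 (55.6%) had an unadjusted p under 0.05 against 5.86% of all probes, a list drawn up after the values were seen.

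A set of 10 probes was taken by likeness to RT1-Ba, as the largest absolute Pearson correlation of log2 ratios over the 31 arrays. All arrays share the pool, and because RT1-Ba has 2 levels the correlation restates the difference between the states and has no p. In order they were TC618620 (0.80), BI279526 (0.80), Notch4 (0.77), NP798074 (0.74), Stk38 (-0.73), Ndn (0.73), BM389513 (-0.71), AA955360 (0.70), LOC103690744 (-0.69) and AJ003232 (-0.69). Of these, 8 were among the 9 probes past the threshold, so 2 were outside them.

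The first of these 2, the expressed sequence tag AA955360 (probe A_44_P523355), lies at chr2:153893780-153893839. It was 0.95 in CR-L 4, 0.046 in CR 1, 1.16 in CR 2, 0.29 in WT 4 and 1.56 in WT 7, against -1.53, -1.06 and 0.39 at the lowest, median and highest of the RT1-Ba-low arrays (difference 1.52 ± 0.33, adjusted p = 0.126, limma). Among the RT1-Ba-low arrays its levels followed those of RT1-Bb: the 15 arrays with RT1-Bb below -1 had values of -1.53 to -0.97, and the other 11 had values of -0.41 to 0.39, with no overlap. This sorting was noticed in the values and is given as a description. The second, LOC103690744, an uncharacterized noncoding RNA on chromosome 20 random, was -2.16 to -0.31 in RT1-Ba-high arrays and -1.27 to 0.66 in RT1-Ba-low arrays (difference -1.40 ± 0.29, adjusted p = 0.10, limma). With the RT1-Ba log ratio as a regressor AA955360 and LOC103690744 passed (adjusted p = 0.00996 and 0.0109, limma).

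**Figure D5:**
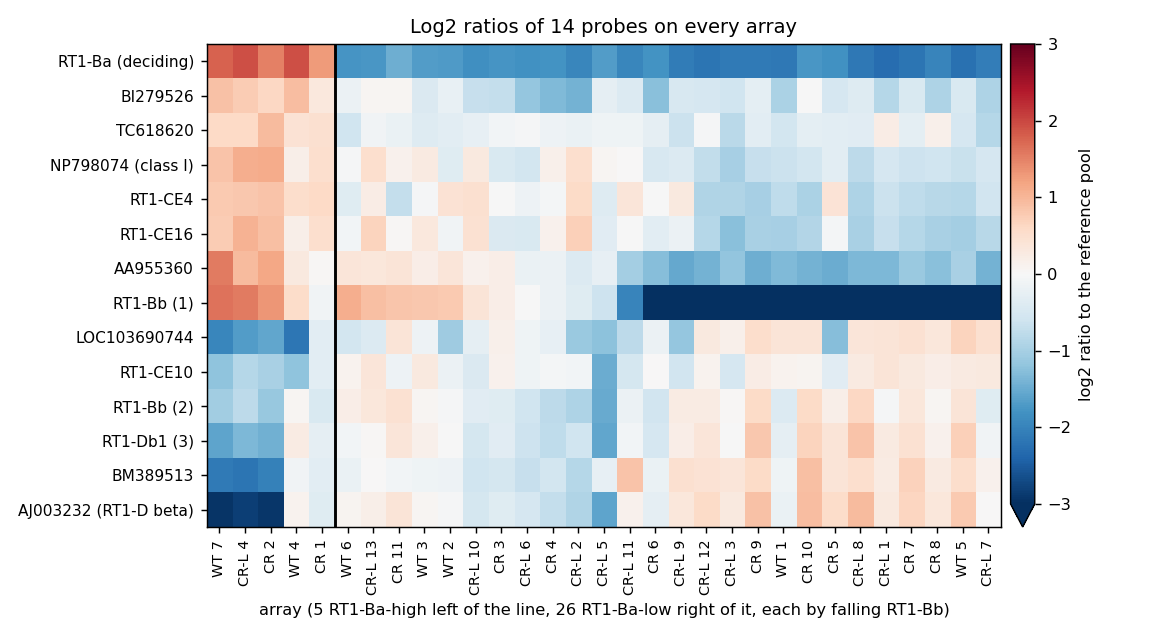
Log2 ratio to the pool (colour, cut at -3 and 3) of 14 probes (rows) on every array (columns), with the 5 RT1-Ba-high arrays left of the line and the 26 RT1-Ba-low arrays right of it, each ordered by falling RT1-Bb. RT1-Bb and AA955360 are at their upper level in all 5 RT1-Ba-high arrays and in 11 RT1-Ba-low arrays, and AJ003232 and BM389513 are lowest in CR-L 4, CR 2 and WT 7.

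The probes therefore gave no single pair of states. RT1-Ba at the deciding probe set apart 5 arrays, RT1-Bb at its first probe and AA955360 set apart 16 arrays that included those 5, and AJ003232 and BM389513 set apart CR-L 4, CR 2 and WT 7 within the 5. Ldhb and Slc27a2, known from earlier results of these data to have 2 levels, matched none of these sets of arrays. Ldhb, the B subunit of lactate dehydrogenase, was 0.82 in CR-L 4, 0.75 in CR 1, 0.54 in CR 2, -2.56 in WT 4 and 0.42 in WT 7, and -2.86 to 0.99 in RT1-Ba-low arrays (difference 0.76 ± 0.72, adjusted p = 0.94, limma). Slc27a2, a fatty acid transporter, differed by 1.63 ± 0.91 and 1.11 ± 0.63 at its probes (adjusted p = 0.874 and 0.876). At its probe A_43_P12655 all RT1-Ba-high arrays were on the upper level, at -0.68 to 0.91. RT1-Ba-low arrays ran from -4.06 to 1.83 there, and 14 of them lay above the lowest RT1-Ba-high array.

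Markers of cells that carry class II molecules overlapped between the states. Of 21 B cell probes 0 passed the threshold (limma), 4 (19.0%) had an unadjusted p under 0.05 against 5.86% of all probes, 18 were above 0 against 51.2% of all probes, and the median difference was 0.21 against 0.0023 over all probes. The mean of the B cell list was -0.21 to 0.24 in RT1-Ba-high arrays and -0.86 to 0.37 in RT1-Ba-low arrays. Ebf1, a transcription factor of B cells, differed by 0.47 ± 0.20 (adjusted p = 0.804). With the B cell mean as a covariate 11 probes passed, 8 of them among the 9. Class II chains were among the others. The RT1-Db1 probe A_44_P130516 differed by 0.66 (adjusted p = 1.97e-05, limma) in that fit. The RT1-Bb probe A_44_P500803 differed by -0.86 (adjusted p = 0.015, limma).

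In the other lists 0 probes passed (limma). Dendritic cell and monocyte probes had a median difference of 0.12 over 16 probes, with list means of -0.047 to 0.23 in RT1-Ba-high arrays and -0.46 to 0.31 in RT1-Ba-low arrays. Itgam, an integrin of monocytes and granulocytes, differed by 0.55 ± 0.34 (adjusted p = 0.89). T cell probes had a median of -0.054 over 15 probes, natural killer and cytotoxic cell probes -0.13 over 10, interferon response probes 0.014 over 20 and sex-linked probes 0.041 over 3. Granulocyte probes had 0.15 over 12 and platelet probes 0.15 over 11.

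Erythroid probes moved most among these lists, with 11 of 11 above 0, 0 at an unadjusted p under 0.05 and a median of 0.62. Their list mean was -0.55 to 0.68 in RT1-Ba-high arrays and -2.46 to 1.61 in RT1-Ba-low arrays, so the states overlapped widely. Ahsp, the chaperone of alpha haemoglobin, differed by 0.90 ± 0.53 (adjusted p = 0.885, limma). The part of these cell markers in the differences above was not tested, other than through the B cell covariate.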

How the data were processed

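The scanner files that the authors deposited list, per the file headers, the intensity of each spot and of its local background as Agilent Feature Extraction read them (the submitters' processing notes name version 10.7.3.1). They also hold the log10 ratio of red over green, detrended and dye-normalized by that program per the file headers. The log2 values of a second deposited table come from processing that is not given in the sources used here. These values tracked log2 red intensity (lowest correlation 0.993 over probes), and each array's median was 8.17. The table serves as an alternative.

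From the scanner files, mean intensities were corrected with limma (version 3.58.1, R 4.3.3) by normexp (offset 50) on the local background, followed by loess within each array. Local background was capped at each array's 99th percentile, since up to 12 spots with a very high background otherwise set the normexp fit on several arrays (chosen after the data were seen, as were the alternatives without both WT arrays and without the cap). Of 45018 spots per array, 1639 control spots and 0.408% of values flagged as outliers were left out, and spots of one probe were averaged into 41012 probes. Only probes whose red signal was well above background on 5 arrays or more were tested (27491, with 0.033% of values missing).

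Of the RT1-Ba probes, the brighter one set the state. RT1-Ba-high and RT1-Ba-low arrays were compared probe by probe with limma (lmFit and eBayes, two-sided, Benjamini-Hochberg over all probes, threshold 0.05), without covariates. Differences are RT1-Ba-high minus RT1-Ba-low on the log2 scale with SE. Single probes were also tested by an exact permutation of the arrays, whose smallest p times 27491 is 0.162 and so cannot pass adjustment by itself. The fit was checked on simulated data. The number of arrays limits the precision.

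Names came from accessions (18971 probes), current symbols (2995), older symbols (203) and an accession in the description (219) through a reference table of GRCr8, used for names alone. The name in the files was kept for 1009 probes, and 17615 probes had none. Positions and probe sequences are those of the files, on rn4, and distances run from the mapped RT1-Ba probe. Named probes are the class II chains with Cd74 and Ciita, called probes with a symbol, called probes within 5 Mb, the 10 most correlated with RT1-Ba, Ldhb and Slc27a2, and up to 3 of each other list with the smallest p that were above background in both states. A further rule, for probes with a wide gap between the ranges of the states, took none. Called probes outside these rules, the other probes of named genes and RT1-CE4 were added after their values were seen. The states, lists and rules were chosen with earlier results of these data known.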

Additional observations from a re-analysis of the deposited data

Results flagged for a closer look

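Among 46 probes checked within the 5 RT1-Ba-high arrays by Dixon's ratio, 2 had an array far from the other 4, where chance gives about 1 in 20. The count is thus about what chance gives, and both are listed as a description. WT 4 was at -2.56 for Ldhb, against 0.42 to 0.82 in the other RT1-Ba-high arrays. CR 1 was at -0.49 for the RT1-S3 probe A_44_P454420, a class I gene, against 0.38 to 0.55 in the others, and that probe differed between the states by 0.054 ± 0.20 (adjusted p = 0.99, limma). The other RT1-S3 probe differed by 0.52 ± 0.19 (adjusted p = 0.709, limma).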

How the results depend on the processing

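The 9 calls became 8 with the study group as a covariate, 3 with the slide as a block, 11 with the B cell mean, 17 with the RT1-Ba log ratio as a regressor, 12 with the red channel alone, 8 with the scanner's log ratio, 7 in the authors' table, 11 with scale normalization and 8 with 1 probe per gene, and 9 with offset 0, without the background cap and with either other filter on dim probes. Near RT1-Ba (within 5 Mb) the 4 calls became 2 with the slide as a block, 7 with the regressor and 2 without both WT arrays of the RT1-Ba-high state. Leaving out single arrays gave 4 to 12 calls, and 2 to 6 near RT1-Ba, the fewest without CR 2. With the replicate number as a block 1 probe was called (BI279526), also 1 near RT1-Ba, and the adjusted p was 0.084 for both TC618620 and Notch4 (limma). The labels do not say whether the numbers pair samples, and correlations of arrays cannot decide it. Of 25 same-numbered pairs 9 correlated above 0.1 (-0.415 to 0.428), and 3 of 29 arrays were most like their own number. Differences near 0 changed sign. The Ndn probe A_44_P541131 was 0.0057 with the replicate block and 0.21 with the scanner's ratio, RT1-DOa was -0.060 with the B cell mean, RT1-DMa was 0.079 with the replicate block and 0.0072 in the authors' table, and the Stk38 probe A_44_P367438 was 0.039 with the slide block and 0.025 in the authors' table. RT1-S3 was -0.020 with the replicate block and -0.044 without both WT arrays, and Ciita was -0.089 with the B cell mean and -0.0057 without the cap. The cause of these changes was not tested. Counting arrays between the thresholds as RT1-Ba-low changed nothing, as there were 0. With single arrays left out, RT1-DMa was -0.12 to 0.018, that Stk38 probe -0.084 to 0.016, RT1-S3 -0.021 to 0.24 and Ciita -0.032 to 0.079.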

Other observations

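A few RT1 genes outside the comparisons above also differed in size between their probes. RT1-EC2, a class I gene with 4 probes, differed between RT1-Ba-high and RT1-Ba-low arrays by 0.12 to 2.07, and RT1-T24-1 by -0.44 and 0.49 at its probes. RT1-A2, a classical class I gene, differed by -0.37 ± 0.13 (adjusted p = 0.699, limma) and 0.64 ± 0.25 (adjusted p = 0.735, limma) at probes that overlap by 19 letters. The sequence of the RT1-CE16 probe shared runs of 16 to 18 letters with probes of RT1-CE4, RT1-A2 and RT1-S3, so these values may not be independent.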
